A study of Homo sapiens with 4 samples.

Results

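Accessibility was examined at the genes of 7 restrainers of JAK-STAT signalling, PTPN1, PTPN2, PTPN6, SOCS1, SOCS2, SOCS3 and CISH, in a lymphoma line in which IRF4 was silenced. An interval (a merged peak of the count files, build hg38) belonged to a gene when its midpoint lay in the gene body, and otherwise when that gene's end was the nearest protein-coding gene end within 100 kb. By this rule 84 of the 73135 intervals were assigned, to 6 of the 7 genes: 27 to PTPN1, 25 to PTPN2, 15 to SOCS3, 8 to SOCS1, 6 to PTPN6 and 3 to SOCS2. CISH received 0, because the interval over its start has its midpoint in the body of MAPKAPK3. That interval and 3 others whose nearest gene end is that of CISH are given separately. All 84 intervals passed the filter on low counts.

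Open chromatin was measured by ATAC-seq, in which a transposase inserts tags into DNA that nucleosomes leave free. The cells were TMD8, an established line of activated B cell-like (ABC) diffuse large B cell lymphoma that depends on the transcription factor IRF4. The 2 Control libraries came from cells given a scrambled short hairpin RNA and the 2 shIRF4 libraries from cells given a hairpin against IRF4. The library names read siIRF4 where the titles read shIRF4. The sources used here state neither time, dose nor hairpin delivery. They do not say that the libraries came from separate cultures, so p-values measure the spread between these libraries, which may be technical. Accessibility is not a measure of mRNA, and the loss of IRF4 itself was not checked here. In such bulk samples fewer cells with an open site and a less open site in every cell cannot be told apart. Counts over all intervals summed to between 9112860 (shIRF4 replicate 2) and 17954924 (shIRF4 replicate 1). Between the Control libraries the counts varied nearly as sampling alone would make them (a chi-square of 1.04 for each degree of freedom), and between the shIRF4 libraries more (2.01). The B cell markers MS4A1, CD79A, CD79B and CD22 each had an interval within 1 kb of a gene end, at levels from 50.7 CPM (MS4A1) to 153 CPM (CD22) in single libraries (CPM: counts scaled to libraries of equal size), and none of these was called. Such intervals were present at 2 of 4 T cell markers (8.47 to 12.2 CPM summed), 2 of 4 myeloid markers (14.1 to 15.5 CPM) and 1 of 4 epithelial markers (8.84 to 13.1 CPM). The T cell gene CD3E was higher in shIRF4 (1.93 and 2.01 against 4.29 and 3.16 CPM) and the epithelial gene CDH1 lower, while CD3D and CD2 had no such interval; their part in the results was not tested.

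A cytokine brings receptor-bound JAK kinases together, the kinases phosphorylate the receptor and STAT proteins, and STAT dimers enter the nucleus and bind DNA. Phosphatases of the PTPN family remove those phosphates at all times, whereas SOCS proteins and CISH are themselves made from STAT target genes and act as feedback. ABC lymphoma cells often carry active STAT3 driven by cytokines they secrete, and losses of PTPN1 or SOCS1 recur in other B cell lymphomas.

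Among RefSeq promoter windows of these genes (GRCh38.p14, 250 bases before to 50 after an annotated start), only that of CISH held a STAT motif. Those of the feedback genes SOCS1 and SOCS3 held none, nor did those of the PTPN genes. There were 8 windows for 6 of the 7 genes. SOCS2 had no window, and the only PTPN2 window lay at an internal start (12840913 to 12841212). The start of SOCS2 and the outer start of PTPN2 were therefore not searched. The window of CISH, chr3:50611725-50612024 on the minus strand, holds 4 copies of the STAT motif GAS (TTCNNNGAA, the same on both strands), shown in capitals:

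CISH: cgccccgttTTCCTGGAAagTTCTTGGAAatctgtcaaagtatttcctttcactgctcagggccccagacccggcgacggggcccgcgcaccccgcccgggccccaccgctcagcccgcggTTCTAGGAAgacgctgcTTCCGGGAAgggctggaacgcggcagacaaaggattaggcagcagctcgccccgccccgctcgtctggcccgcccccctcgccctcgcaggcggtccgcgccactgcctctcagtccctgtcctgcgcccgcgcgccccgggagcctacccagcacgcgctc

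The SOCS1 window, chr16:11256155-11256454 on the minus strand, holds 1 interferon-stimulated response element (ISRE, GAAANNGAAA or TTTCNNTTTC on the other strand), in capitals, a motif that IRF proteins can bind:

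SOCS1: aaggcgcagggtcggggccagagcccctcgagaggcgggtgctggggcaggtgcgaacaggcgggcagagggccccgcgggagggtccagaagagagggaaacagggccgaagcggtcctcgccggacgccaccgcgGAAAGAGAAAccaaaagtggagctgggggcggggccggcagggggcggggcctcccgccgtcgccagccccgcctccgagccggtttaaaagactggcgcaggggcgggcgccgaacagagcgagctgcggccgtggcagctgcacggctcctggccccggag

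The PTPN1 window, chr20:50510133-50510432 on the plus strand, held no match and is shown as the counterpart without either motif:

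PTPN1: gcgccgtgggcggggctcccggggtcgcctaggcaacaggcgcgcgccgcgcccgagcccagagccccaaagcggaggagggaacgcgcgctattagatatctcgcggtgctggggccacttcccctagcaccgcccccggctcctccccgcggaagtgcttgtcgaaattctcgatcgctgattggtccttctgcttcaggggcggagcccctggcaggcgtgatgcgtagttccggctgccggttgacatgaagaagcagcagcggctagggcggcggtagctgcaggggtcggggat

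Of all 35116 windows, 7.66% held a GAS and 0.0199% (7 windows) held 4 or more, while 3.57% held an ISRE. The composite motif of ETS and IRF factors (EICE, GGAANNGAAA or TTTCNNTTCC, 2.82% of windows) and the AP-1 motif (TGANTCA, 7.71%) were found in none of the 8. An overlap of ISRE and EICE matches was therefore not possible in the printed windows. A match describes these letters only.

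These printed windows lie wholly within intervals whose accessibility did not pass the test between Control and shIRF4. The interval over the CISH start (chromosome 3, 50611197 to 50612467) lay at 29.6 and 29.0 CPM in the Control libraries and 32.0 and 31.6 CPM in the shIRF4 libraries. The shIRF4 libraries were thus both slightly higher, and the log2 fold change of 0.12 (SE 0.08, 95% confidence interval -0.04 to 0.29) did not pass (adjusted p = 0.306, edgeR). An interval was called where this p, adjusted over all tested intervals, was under 0.05. The other 3 intervals nearest to CISH, all in MAPKAPK3, a kinase gene, changed by 0.02 to 0.35 and did not pass either.

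The interval over SOCS1 (chromosome 16, 11253465 to 11256975) covers the whole gene and lay at 83.7 and 80.6 CPM in Control and 78.6 and 76.9 CPM in shIRF4. The groups did not overlap, but the difference was small (log2 fold change -0.08, SE 0.06, interval -0.20 to 0.05, adjusted p = 0.396, edgeR). SOCS1 binds JAKs directly and blocks their kinase activity. The interval over the PTPN1 start (chromosome 20, 50509622 to 50511566) lay at 50.8 and 55.6 CPM in Control and 51.9 and 50.2 CPM in shIRF4, with overlapping groups (-0.06, SE 0.07, interval -0.20 to 0.09, adjusted p = 0.601, edgeR).

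The starts of the remaining genes did not pass the test either. Over the PTPN2 start (chromosome 18, 12882832 to 12886133) the 4 libraries lay between 105 and 113 CPM (log2 fold change -0.04, interval -0.16 to 0.07). Over the SOCS3 start (chromosome 17, 78358264 to 78361400) Control lay at 67.6 and 68.7 CPM and shIRF4 at 64.4 and 63.9 CPM (-0.09, interval -0.22 to 0.04). At SOCS2, whose strand the gene table does not give, the interval over the lower-coordinate end (chromosome 12, 93569288 to 93572226) lay between 35.2 and 38.6 CPM (0.06, interval -0.10 to 0.22). It also covers part of the antisense gene SOCS2-AS1. For all 7 starts, CISH included, the confidence interval lay within a 1.5-fold change in either direction. Of all tested intervals within 1 kb of either end of a gene, 11.9% were called, and of the 9 such intervals among the 84, 1 was, at the 3' end of PTPN6.

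**Figure D1:**
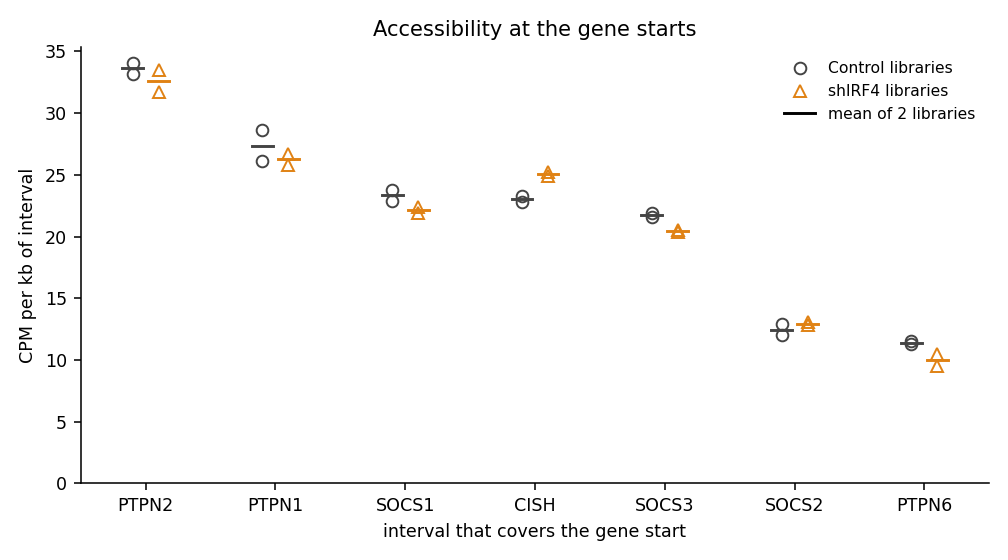
Accessibility in CPM per kb of interval at the interval over each gene's start (for SOCS2 its lower-coordinate end), as points for the 2 Control and 2 shIRF4 libraries with their mean as a short line. PTPN2 was the most open and the upstream start of PTPN6 the least of those plotted (the downstream start of PTPN6, at 12.7 CPM per kb in Control, is not plotted), and no start passed the test between the groups.

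Per length, the range across the starts was wider than the difference between the groups at any start, though some neighbouring starts differed by less than that. The plot of accessibility at the gene starts runs from PTPN2 at 33.7 ± 0.663 CPM per kb in Control (SD, n = 2) over PTPN1 at 27.4 ± 1.75 to SOCS1 at 23.4 ± 0.637, CISH at 23.1 ± 0.335 and SOCS3 at 21.7 ± 0.252 CPM per kb. SOCS2 at 12.4 ± 0.653 and the upstream start of PTPN6 at 11.4 ± 0.155 CPM per kb were lowest, and the interval over the downstream start of PTPN6 lay at 12.7 ± 0.753 CPM per kb. SOCS1 and CISH, neighbours in this order, overlapped between libraries. In shIRF4 their order was reversed, with CISH at 25.0 and SOCS1 at 22.1 CPM per kb. With 2 libraries a group no exact permutation test of a single value can go below p = 0.333, and none was run here. These levels depend on where the authors' peaks end.

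Away from the starts, lower intervals were called at PTPN1, PTPN2 and SOCS3 and higher ones at PTPN6 and SOCS2. Of the 84 intervals, 15 were lower in shIRF4, 3 higher and 66 not called at an adjusted p under 0.05 (edgeR). Across all 73028 tested intervals 22.8% were called, 15.5% lower and 7.26% higher, against 21.4%, 17.9% and 3.57% of the 84, so the total number called at these genes was near the background. The share lower was 29.6% at PTPN1 and 26.7% at SOCS3, but 12.0% at PTPN2, under that background, and the gain at SOCS2 is 1 interval of 3. The groups did not overlap at 48 of the 84 intervals (57.1%) and at 59.0% of all tested intervals, so a lack of overlap alone sets no interval apart. The median log2 fold change was -0.10 over the 84 and 0.01 over all tested intervals. Of the 66 not called, 47 had a confidence interval within a 1.5-fold change, and for the other 19 it reached beyond that, so a change of that size could not be told from none at this depth. Counts behind the 84 intervals ran from 16 to 2035 per library.

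**Figure D2:**
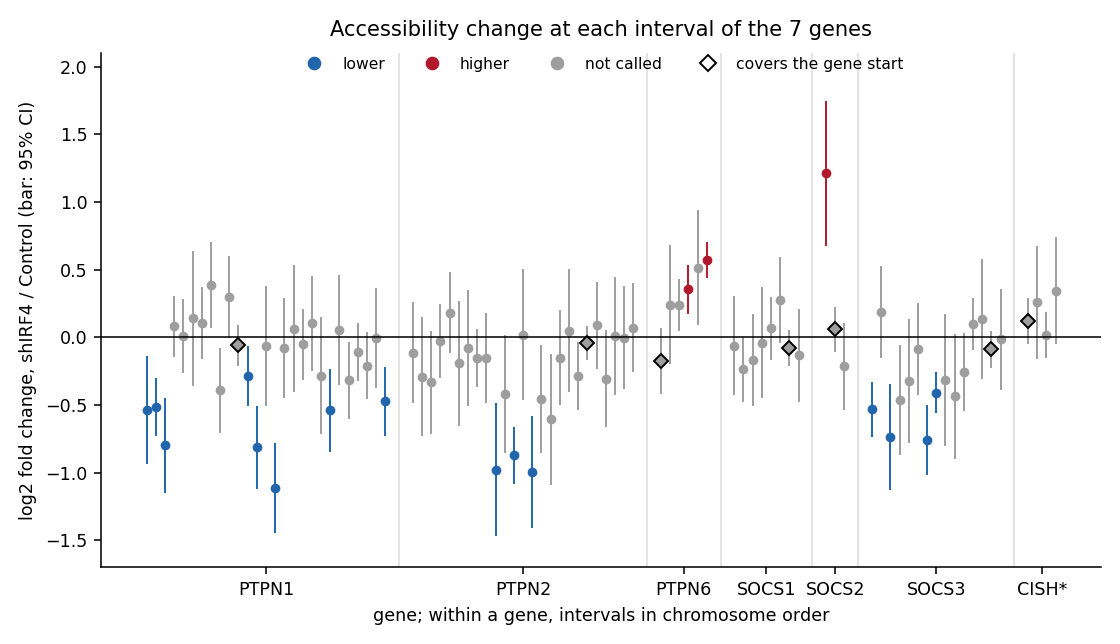
Log2 fold change of each interval in shIRF4 against Control (positive: higher in shIRF4) with its 95% confidence interval, by gene and in chromosome order; diamonds mark the interval over the gene start, and CISH* marks the 4 intervals nearest to CISH, which the rule gave to MAPKAPK3. The 15 lower intervals lie at PTPN1, PTPN2 and SOCS3 and the 3 higher ones at PTPN6 and SOCS2, with every diamond between -0.18 and 0.12. The interval over the downstream start of PTPN6 has no diamond (0.24, 95% confidence interval 0.05 to 0.42, not called).

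PTPN1 encodes PTP1B, a phosphatase of the endoplasmic reticulum surface that acts on JAK2 and TYK2. Of its 27 intervals (gene body at chromosome 20, 50510383 to 50585241), 8 were lower, 0 higher and 19 not called. The 8 lower intervals lay in the gene body (5) and more than 50 kb upstream of the start (3), while the 7 intervals between 50 and 10 kb upstream were not called.

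The largest loss at PTPN1 was at 50528613 to 50529300, in the gene body with its midpoint 18573 bp after the start. It lay at 10.7 and 9.37 CPM in Control and at 4.56 and 4.69 CPM in shIRF4, so the groups did not overlap. Accessibility there was 2.17-fold lower (log2 fold change -1.11, SE 0.16, adjusted p = 1.73e-05, edgeR), and the interval also passed a test against a 1.5-fold change (adjusted p = 0.0114, edgeR). Between it and the start, the interval at 50519485 to 50519977 fell from 10.3 and 10.4 CPM to 5.97 and 5.78 CPM (-0.81, SE 0.14, adjusted p = 0.000228, edgeR).

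The 3 upstream losses form a group 53338 to 60077 bp from the start, in a stretch where PTPN1 is the nearest gene. At 50456849 to 50457241 accessibility fell from 8.14 and 7.96 CPM to 4.89 and 4.15 CPM (log2 fold change -0.80, SE 0.17). At 50450780 to 50451718, with the highest CPM of the 3, it fell from 22.4 and 23.3 CPM to 15.2 and 17.2 CPM (-0.52, SE 0.10). In both, each shIRF4 library was below each Control library. Neither passed in DESeq2 (adjusted p = 0.0644 and 0.0703). The interval at 50450077 to 50450535 changed from 5.45 and 5.73 CPM to 3.58 and 4.36 CPM and passed narrowly (-0.54, adjusted p = 0.0451, edgeR). Leaving out either Control library ended this call (adjusted p of 0.139 without replicate 1 and 0.236 without replicate 2), as did leaving out shIRF4 replicate 1 (-0.35, adjusted p = 0.399) and a replicate block (adjusted p = 0.0656).

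The other 3 losses in the PTPN1 body were smaller, each depended on single libraries, and DESeq2 called none of them (adjusted p = 0.226, 0.214 and 0.489 in the order given here). At 50546459 to 50547137 both Control libraries lay at 9.82 CPM and the shIRF4 libraries at 7.11 and 6.11 CPM (log2 fold change -0.54, SE 0.14), a call lost without Control replicate 2 (adjusted p = 0.0562). Near the far end of the gene, at 50582062 to 50582965, accessibility fell from 15.4 and 14.0 to 10.3 and 10.9 CPM (-0.47, SE 0.12), a call that ended when Control replicate 1 (adjusted p = 0.0874) or shIRF4 replicate 1 (adjusted p = 0.0749) was left out. At 50516236 to 50517163 it fell from 20.3 and 19.0 to 16.8 and 14.8 CPM (-0.29, SE 0.10, adjusted p = 0.0468, edgeR). It ended on leaving out either Control library (adjusted p of 0.294 for replicate 1 and 0.0983 for replicate 2) or shIRF4 replicate 2 (adjusted p = 0.107), and when scaled by library totals (adjusted p = 0.104). Without either Control library 5 of the 8 intervals were called lower. The 19 intervals not called changed by -0.39 to 0.39.

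PTPN2 encodes the T cell phosphatase TC-PTP, the closest relative of PTP1B, which acts on JAK1, JAK3 and STAT proteins. Of its 25 intervals (gene body at chromosome 18, 12785478 to 12884237, minus strand), 3 were lower, 0 higher and 22 not called. All 3 lower intervals lay in the gene body, between 16430 and 26527 bp after the start, with log2 fold changes of -0.87 to -0.99. The one with the highest CPM, at 12860982 to 12862052, fell from 24.5 and 24.8 CPM to 13.1 and 14.0 CPM, 1.83-fold (log2 fold change -0.87, SE 0.10, adjusted p = 9.57e-07, edgeR). It also passed against a 1.5-fold change (adjusted p = 0.0255, edgeR).

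Nearer to the start, the interval at 12867522 to 12868093 fell from 6.80 and 5.88 CPM to 2.93 and 3.60 CPM (log2 fold change -0.99, SE 0.20). At 12857602 to 12857819, only 218 bp long, accessibility fell from 5.37 and 4.24 CPM to 2.77 and 1.75 CPM (-0.98, SE 0.23), a call that DESeq2 did not make (adjusted p = 0.0939). The 22 intervals not called changed by -0.60 to 0.18. The RefSeq window listed for PTPN2 lies at an internal start of the gene (12840913 to 12841212) and in none of the intervals.

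SOCS3 encodes a feedback inhibitor that binds the shared receptor chain gp130 together with JAKs, and it restrains signalling by STAT3. Of its 15 intervals, 4 were lower, 0 higher and 11 not called. The gene is short (4148 bp on the minus strand of chromosome 17, 78356778 to 78360925), and none of the 3 intervals within 1 kb of its ends passed. The start interval, which also covers part of the divergent transcript SOCS3-DT, is given above. The interval just past the 3' end (78356039 to 78356762) lay at 22.6 and 22.5 CPM in Control and 23.6 and 24.9 CPM in shIRF4 (log2 fold change 0.10), and that inside the gene (78357208 to 78357695) at 3.52 and 3.87 against 3.69 and 4.80 CPM (0.14). All 4 lower intervals lay beyond its 3' end, with midpoints 13955 to 42606 bp outside the gene, and 3 of them overlap the uncharacterised long noncoding RNA gene LOC105371912.

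The SOCS3 loss with the highest CPM, in an interval of 2966 bp at 78341341 to 78344306, went from 51.3 and 52.2 CPM to 39.8 and 37.9 CPM (log2 fold change -0.41, SE 0.07, adjusted p = 0.000169, edgeR). A larger loss, and the largest of the 4, was at 78337261 to 78338316, from 18.4 and 15.5 CPM to 10.3 and 9.49 CPM (-0.76, SE 0.12, adjusted p = 6.53e-05, edgeR). Farther out, at 78313706 to 78314638, accessibility fell from 28.9 and 26.6 CPM to 20.0 and 17.8 CPM (-0.53, SE 0.09). Each of these 3 kept its call in DESeq2 and on leaving out each library. The weaker interval at 78317093 to 78317633 fell from 6.54 and 5.80 to 3.75 and 3.60 CPM (-0.73, SE 0.19), and was not called in DESeq2 (adjusted p = 0.182) or on leaving out Control replicate 1 (adjusted p = 0.0761).

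**Figure D3:**
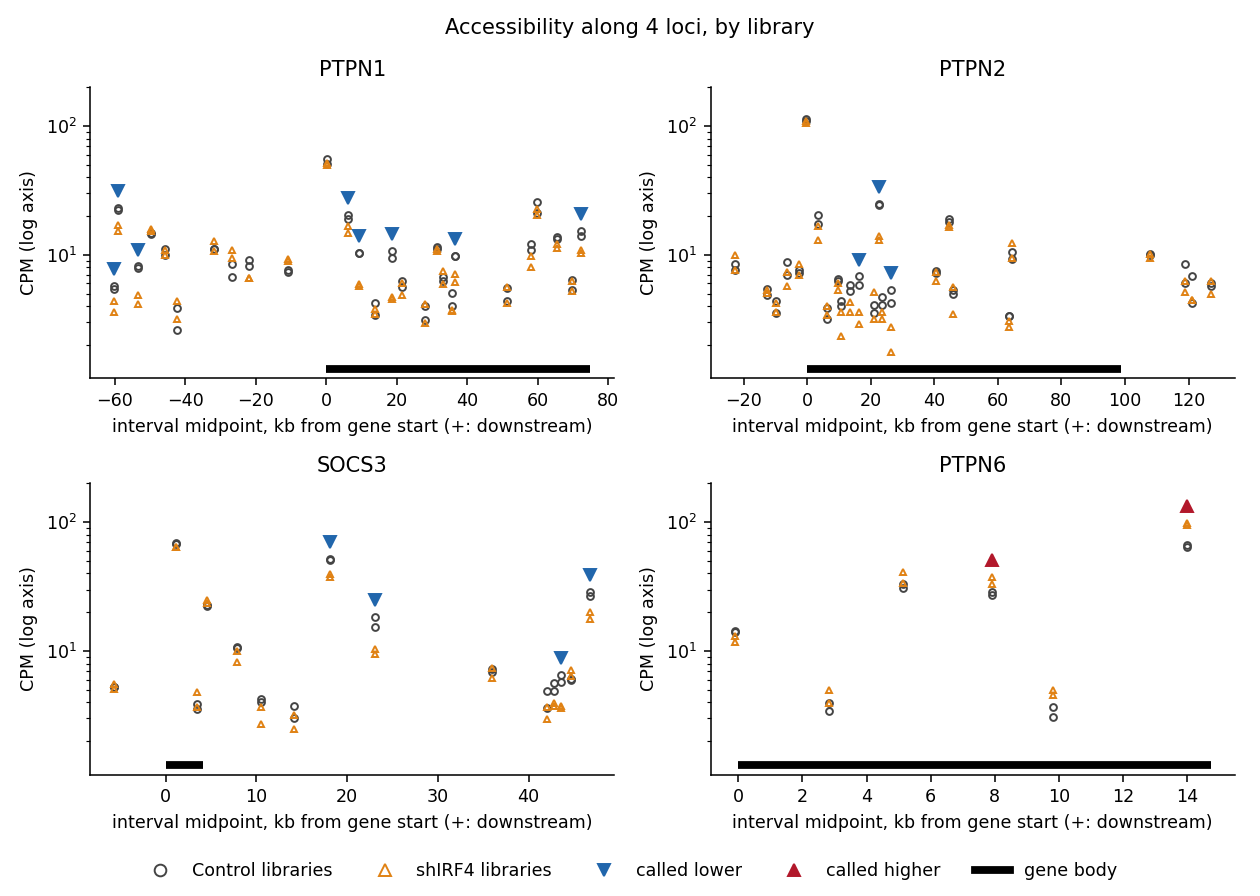
Accessibility in CPM (log axis) of every interval of PTPN1, PTPN2, SOCS3 and PTPN6 in each of the 4 libraries, against the distance of its midpoint from the gene start in kb (positive: downstream); black bars mark the gene body and filled triangles the called intervals. Losses at PTPN1 lie in the body and over 50 kb upstream, at PTPN2 within the first part of the body and at SOCS3 beyond the 3' end, and both gains at PTPN6 lie past its downstream start.

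PTPN6 encodes SHP-1, a phosphatase that inhibitory receptors such as CD22 recruit in B cells. Of its 6 intervals 2 were higher, 0 lower and 4 not called. The largest gain covers the 3' end of the gene (chromosome 12, 6956825 to 6964301). It lay at 66.7 and 64.3 CPM in Control and at 99.4 and 95.3 CPM in shIRF4, a 1.49-fold rise with groups far apart (log2 fold change 0.57, SE 0.06, adjusted p = 3.64e-07, edgeR).

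This long interval (7477 bp) extends past PTPN6 over the microRNA genes MIR200C and MIR141 and their host gene MIR200CHG, so the gain cannot be placed in one of them. It had the highest CPM of the PTPN6 intervals, but per kb its 8.76 CPM in Control was below that of 4 of the other 5. The neighbouring interval in the body at 6953108 to 6955866 rose from 28.8 and 27.4 CPM to 37.9 and 33.1 CPM (log2 fold change 0.35, SE 0.08, adjusted p = 0.00369, edgeR). DESeq2 did not call it (adjusted p = 0.182), and the edgeR call ended on leaving out Control replicate 2 (0.31, adjusted p = 0.0584) or shIRF4 replicate 1 (0.25, adjusted p = 0.0915).

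PTPN6 has an upstream promoter used mainly in epithelial cells and a downstream promoter used in blood cells, and the RefSeq table lists windows at both starts. The interval at the upstream start (6945843 to 6947081), which also covers an end of the gene C12orf57, lay at 14.0 and 14.3 CPM in Control and 13.0 and 11.8 CPM in shIRF4 (log2 fold change -0.18, interval -0.41 to 0.06). The longer interval over the downstream start (6950441 to 6952972) lay at 30.7 and 33.4 CPM in Control and 41.0 and 33.5 CPM in shIRF4. Per kb the Control means were close, at 12.7 CPM there and 11.4 CPM at the upstream start. In the downstream interval shIRF4 replicate 1 was well above the rest and replicate 2 level with the higher Control library. The change did not pass (0.24, SE 0.09, interval 0.05 to 0.42, unadjusted p = 0.0141, adjusted p = 0.0583, edgeR).

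SOCS2 encodes a receptor-binding subunit of a ubiquitin ligase best known for limiting growth hormone signalling. Of its 3 intervals 1 was higher. This interval, 5555 bp outside the gene at 93564292 to 93564536 on chromosome 12, is short and little read, with 1.43 and 2.08 CPM in Control and 3.69 and 4.91 CPM in shIRF4. Both shIRF4 libraries were above both Control libraries, a 2.32-fold rise (log2 fold change 1.21, SE 0.26, adjusted p = 0.00124, edgeR) and the largest fold change among the 84. The interval in the gene body at 93591473 changed by -0.21 and did not pass.

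At SOCS1 none of the 8 intervals was called by edgeR (0 higher and 0 lower), and DESeq2 called none of the 66 intervals that edgeR did not call. Of the 8 SOCS1 intervals, 1 had an unadjusted p under 0.05, at 11224813 to 11225797, which lay at 14.5 and 15.2 CPM in Control and 13.0 and 12.0 CPM in shIRF4 (log2 fold change -0.24, adjusted p = 0.139, edgeR). All 8 changed by -0.24 to 0.27, and the confidence interval of each lay within a 1.5-fold change. SOCS1 was thus the gene where a change of that size could be bounded at every interval.

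Counts summed over all intervals of a gene were called at 4 of the 6 genes in a fit over 16179 genes, of which 20.5% were called. PTPN6 rose from 164 and 163 CPM to 220 and 202 CPM (log2 fold change 0.37, SE 0.05, adjusted p = 6.51e-05, edgeR). SOCS3 fell from 272 and 269 CPM to 225 and 227 CPM (-0.26, SE 0.05, adjusted p = 0.000781, edgeR). In both genes every shIRF4 library lay on the same side of the Control libraries.

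The summed falls of PTPN1 and PTPN2 were smaller. PTPN1 lay at 342 and 353 CPM in Control and 307 and 296 CPM in shIRF4 (log2 fold change -0.20, SE 0.05, adjusted p = 0.00701, edgeR). PTPN2 lay at 337 and 328 CPM in Control and 295 and 288 CPM in shIRF4 (-0.19, SE 0.05, adjusted p = 0.0104, edgeR). DESeq2 made neither call (adjusted p = 0.0584 and 0.0938), and neither held on leaving out Control replicate 1 (adjusted p = 0.0974 and 0.249) or Control replicate 2 (adjusted p = 0.211 and 0.130). SOCS1 (-0.08, interval -0.18 to 0.01) and SOCS2 (0.07, interval -0.06 to 0.20) did not pass. A sum weighs the most read intervals most, which are the starts at 5 of these genes and the 3' end at PTPN6.

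By their median, the surroundings of these genes were close to level, apart from PTPN6. Among the other tested intervals within 1 Mb, the median log2 fold change was 0.03 around PTPN1 (115 intervals, 22 lower and 10 higher), 0.00 around PTPN2 (128 intervals, 11 lower and 7 higher) and 0.04 around SOCS3 (195 intervals, 28 lower and 23 higher). It was -0.01 around SOCS1 (157 intervals, 26 lower and 16 higher), 0.00 around SOCS2 (61 intervals, 7 lower and 3 higher) and 0.03 around CISH (91 intervals, 5 lower and 4 higher). Around PTPN6 it was 0.13, with 16 of 116 intervals higher and 7 lower. Over all tested intervals 15.5% were lower and 7.26% higher. The part of the PTPN6 neighbourhood in its gains was not tested.

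A list of 55 further JAK-STAT genes held 296 intervals at 52 genes, of which 41 were lower and 39 higher (13.9% and 13.2%, against 15.5% and 7.26% over all tested intervals; median log2 fold change 0.04). This balance held in edgeR with all 4 libraries: DESeq2 called 18 lower and 3 higher, and the counts were 28 and 17 without Control replicate 1, 32 and 20 without Control replicate 2 and 29 and 18 without shIRF4 replicate 1. Over all intervals, too, the share of lower among called intervals was larger in each of these other fits. It was 68.2% in edgeR with all 4 libraries and 81.3% in DESeq2. The 84 intervals of the restrainers above had 15 lower and 3 higher, and the difference between the lists was not tested. Further restrainers (13 genes such as PIAS, CBL and other SOCS genes) had 6 of 62 intervals lower and 6 higher (9.68% each). Most of these belonged to 2 genes: PTPRC had 4 of 21 intervals higher and 0 lower, and SH2B3 3 of 12 lower and 0 higher. Of 3 intervals of PIAS1, a SUMO ligase that restrains STAT proteins, 1 had the largest fall of the list, from 4.70 and 4.46 CPM to 1.09 and 0.873 CPM (-2.16, SE 0.26) in its body. Of 6 intervals of USP18, which damps the interferon receptor, 1 fell and 1, at an end of the gene, rose from 9.98 and 10.6 CPM to 15.5 and 14.7 CPM (0.56, SE 0.12). Of 5 intervals of SOCS5, 1 rose, 16118 bp outside the gene (0.81, SE 0.23), and of 2 of PIAS2, 1 fell (-0.70, SE 0.21).

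Upstream of the restrainers, receptors had 17 of 88 intervals higher and 10 lower (19.3% and 11.4%). Over all tested intervals 7.26% were higher and 15.5% lower, and DESeq2 called only 3 rises in the whole list. An interval near the interleukin 21 receptor gene IL21R rose from 2.01 and 2.98 CPM to 5.10 and 5.02 CPM (log2 fold change 1.01, SE 0.22), and 1 at 20896 bp from IFNAR1 rose (0.69, SE 0.19). Of 5 intervals of the interferon receptor gene IFNGR2, 2 fell and 1 rose, and of 8 of IFNAR2, 2 fell and 2 rose. Those of smallest p, within the 2 genes, fell (-1.22, SE 0.14 and -1.18, SE 0.15). Of the kinases, 8 of 30 intervals were lower and 3 higher. An interval 47326 bp from JAK2, the substrate of PTP1B, fell from 5.03 and 4.39 CPM to 1.36 and 2.07 CPM (-1.55, SE 0.25), and 1 inside JAK1 fell (-1.07, SE 0.20). Of 12 intervals of JAK2, 3 fell and 1 rose, and of 15 of JAK1, 4 fell and 2 rose. Ligand genes had 4 of 30 intervals lower and 4 higher (13.3% each), with a rise near IL10 (0.90, SE 0.17). The rise assigned to IFNG (0.79, SE 0.20) and the falls assigned to IL6 (-1.45, SE 0.21) and IL21 (-0.76, SE 0.19) lay 98269, 86755 and 60916 bp from those genes. Of 10 intervals of IL6, 2 fell and 1 rose.

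Downstream, 4 of 23 intervals of the STAT genes were higher and 2 lower (17.4% and 8.7%). An interval at 46878 bp from STAT4 rose from 1.51 and 1.26 CPM to 2.66 and 3.49 CPM (log2 fold change 1.09, SE 0.27). Intervals near STAT6 (-1.08, SE 0.15) and STAT3 (-0.95, SE 0.25) fell. Among target genes 11 of 63 intervals were lower and 5 higher (17.5% and 7.94%), near the shares over all tested intervals (15.5% and 7.26%). Of 12 intervals of BCL2L1, an antiapoptotic gene, 5 fell and 1 rose; that of smallest p, in its body, went from 14.7 and 15.3 CPM to 6.19 and 5.24 CPM (-1.36, SE 0.14), and of 12 intervals of BCL6, a germinal centre repressor gene, 1 fell, 4670 bp outside it (-1.09, SE 0.25). Of 9 intervals of the interferon-response gene IRF1, 1 rose, 5673 bp outside the gene (0.38, SE 0.08), as did the only interval of IRF9, at an end of the gene (0.32, SE 0.08).

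**Figure D4:**
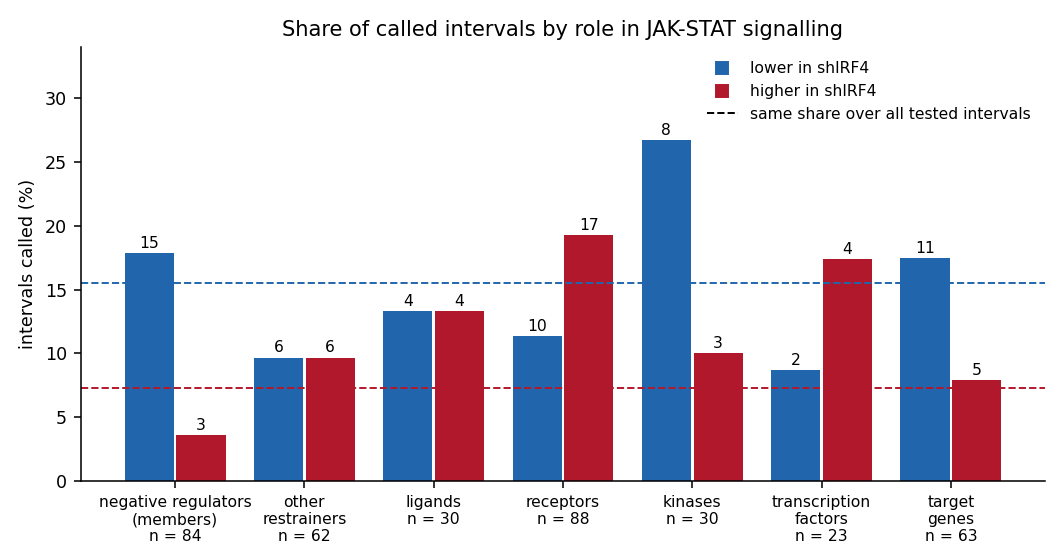
Percentage of tested intervals called lower (blue) or higher (red) in shIRF4 for the 7 restrainers and for other JAK-STAT genes by role, with the number of intervals called above each bar and dashed lines at the shares over all tested intervals (15.5% lower, 7.26% higher). Receptors had 17 higher and 10 lower intervals, and kinases 8 lower and 3 higher.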

How the data were processed

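ATAC-seq counts of 4 TMD8 libraries were analysed. The deposited values are raw counts per merged peak, made by the authors with featureCounts 2.0.0 from 5' read ends with duplicates ignored, per the file headers; the build is hg38, per the submitters' processing notes. Reads with several alignments were counted by fractions, per the same headers, yet every deposited count is whole. Aligner, peak caller and any shift for the transposase are not given in the sources used here. Ignoring duplicates caps densely read peaks, more so in deeper libraries.

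Intervals were filtered with filterByExpr (73028 kept, 107 removed), scaled by TMM (factors 0.981 to 1.03) and tested with the edgeR 4.0.16 quasi-likelihood F-test in R 4.3.3 (group as the only term, two-sided, Benjamini-Hochberg over all intervals, threshold 0.05). "Higher", "lower", "rose" and "fell" mean past that threshold. CPM uses the TMM-scaled library sizes; SE is the size of the log2 fold change over the square root of F. On simulated data from 73016 intervals the fit recovered 53% of 1.5-fold and 83% of 2-fold changes. The simulation gave all intervals and both groups the same spread. The real shIRF4 libraries varied more than the Control libraries (chi-square of 2.01 against 1.04), so these rates hold for that setting only. Counts were also summed per gene and fitted over 16179 genes.

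Genes and promoter windows come from RefSeq (GRCh38.p14), without exons, so exonic and intronic intervals are not told apart. A midpoint in several gene bodies went to the shortest. An interval's position leaves unknown which gene it acts on. The genes and lists were chosen with earlier results of these data known. Named intervals are those called, those within 1 kb of a gene end and the most open of each gene; of the pathway list, per role, up to 2 genes with the largest rise and 2 with the largest fall, by each gene's called interval of smallest p; some items that this would name are not reported here. Alternatives were library totals, DESeq2 1.42.0, no filter, a replicate block, a test against 1.5-fold, other assignments, leaving out each library and, added after seeing the data, the Control libraries as 1 sample. Same-numbered libraries did not deviate together (r = -0.0263 over intervals).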

Additional observations from a re-analysis of the deposited data

How the results depend on the processing

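None of the 18 called intervals changed sign under the 10 alternative fits. The number lower was 15, with 11 to 16 when 1 library was left out, 7 in DESeq2 and 2 against a 1.5-fold change; the number higher was 3, with 6 under library totals and 0 against a 1.5-fold change. PTPN1 had 8 lower intervals, 2 in DESeq2, 1 against a 1.5-fold change, 5 within 50 kb and 5 to 7 with 1 library left out. Of the 4 genes called on summed counts, 2 were called in DESeq2, 2 with the Control libraries as 1 sample, 0 against a 1.5-fold change and between 2 and 4 on leaving out a library. Of the pathway list, 41 intervals were lower (18 in DESeq2, 10 against a 1.5-fold change) and 39 higher (3 in DESeq2, 1 against a 1.5-fold change, between 17 and 41 on leaving out a library). With a replicate block 15 intervals were lower and 4 higher; this ended 1 call and made 2. Only 2 intervals, in PTPN1 and PTPN2, were called in every fit, and 9 in every fit but that against 1.5-fold. Where leaving out a library leaves 1 in a group, it is assumed to vary like the other group. Scaling by library totals moved the median over all intervals from 0.01 to 0.06 and the share of lower among called intervals from 68.2% to 58.0%. Over all intervals, edgeR with all 4 libraries called 11347 lower and 5302 higher. DESeq2 called 3710 lower and 856 higher, and the test against a 1.5-fold change 2420 and 467. Fewer calls in those 2 fits were thus not particular to these genes. Correction for GC content was not run, since no genome was used here. The cause of these differences was not tested.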
